A study of Mus musculus with 14 samples.

Results

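The heart libraries of the series fall into 2 sets by the number in their titles, and the sets differ in how much atrial muscle RNA they hold. Numbers 1 and 2 of both genotypes (WT1, WT2, KO1 and KO2, called atrium-rich here) were set against numbers 3 and 4 (WT3, WT4, KO3 and KO4, called atrium-poor), with genotype as a covariate. These 8 libraries are part of 14, and the other 6 are from gonadal white adipose tissue (gWAT). The sets were chosen by the measured levels of Myl7 and Myl4 in these libraries, so every difference between them is a description, and counts of genes past a threshold between them support nothing. All samples are from C57BL/6 mice aged 21 weeks, after 8 weeks on high fat food. WT hearts are wild type, and KO hearts are FHL2-/-, without functional copies of the gene for the LIM-domain protein Fhl2. Tissue was flash frozen, RNA was taken with Trizol, and mRNA libraries were built with a Kapa HyperPrep kit. The labels do not say which piece of each heart was taken, nor whether libraries are from separate animals, and p-values therefore measure only the spread between these samples, which may be technical.

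Atrial and ventricular muscle build the same contractile machine with different parts. Myl7 and Myl4 encode the atrial regulatory and essential myosin light chains, and Myl2 and Myl3 their ventricular counterparts. Atrial muscle cells also store and secrete natriuretic peptide and restrain the calcium pump with sarcolipin, where ventricular cells rely on phospholamban. The outer surface of the heart, the epicardium, is a mesothelium, a sheet of keratin-bearing cells that carry mucin and mesothelin.

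The 4 sequences below are the 250 bases before the start of 4 atrial genes, shown because Myl7, Nppa and Mybphl are among the genes with the widest gap between the sets and because Bmp10 divides the libraries in another way. They are RefSeq promoter windows on GRCm38.p6, read 5′ to 3′ along the strand of each gene: Myl7 at chr11:5898783-5899032 (minus strand), Nppa at chr4:148000472-148000721 (plus), Bmp10 at chr6:87428744-87428993 (plus) and Mybphl at chr3:108364661-108364910 (plus). Capitals mark AGATAA or TGATAA on either strand, letters that GATA factors bind.
Myl7: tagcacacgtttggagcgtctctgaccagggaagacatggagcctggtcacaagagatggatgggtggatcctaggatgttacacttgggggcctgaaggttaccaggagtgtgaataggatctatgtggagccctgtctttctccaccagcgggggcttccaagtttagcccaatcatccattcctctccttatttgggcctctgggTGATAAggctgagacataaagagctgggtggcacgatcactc
Nppa: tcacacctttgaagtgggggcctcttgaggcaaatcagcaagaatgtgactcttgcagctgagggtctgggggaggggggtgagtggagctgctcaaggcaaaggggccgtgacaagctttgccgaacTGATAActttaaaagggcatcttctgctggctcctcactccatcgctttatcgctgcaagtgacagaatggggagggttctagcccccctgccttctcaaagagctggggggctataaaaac
Bmp10: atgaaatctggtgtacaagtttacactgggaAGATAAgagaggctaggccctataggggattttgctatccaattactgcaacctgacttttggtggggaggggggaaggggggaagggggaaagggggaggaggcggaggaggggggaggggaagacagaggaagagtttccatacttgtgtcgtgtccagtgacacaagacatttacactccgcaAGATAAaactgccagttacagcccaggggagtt
Mybphl: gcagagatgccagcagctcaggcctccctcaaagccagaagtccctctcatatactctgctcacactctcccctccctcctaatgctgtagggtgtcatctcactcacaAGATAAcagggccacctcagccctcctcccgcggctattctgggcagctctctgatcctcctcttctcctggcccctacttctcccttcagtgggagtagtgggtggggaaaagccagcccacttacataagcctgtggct
The capitals lie 42 bases before the start in Myl7, 122 in Nppa, 219 and 33 in Bmp10, and 141 in Mybphl. All 4 windows shown hold these letters, and they do not stand for the atrial list as a whole. Myl4, with a wider gap between the sets than Nppa and Mybphl, is not shown. Of 15 atrial genes with a promoter entry, 5 held these letters in the first window listed, as did 3 of 9 ventricular genes and 1 of 11 mesothelial genes, against 17% of all 27025 windows and 9.21% of those of tested heart genes. AGGTCA, letters that nuclear receptors bind, searched on both strands, stood in 0 of 15 atrial, 0 of 9 ventricular, 4 of 11 mesothelial and 6 of 19 fatty acid oxidation windows, against 13.8% of all windows and 10.4% of those of tested heart genes. AGGTGT, which T-box factors bind, stood in 2 of 15 atrial, 0 of 9 ventricular, 3 of 11 mesothelial and 1 of 19 fatty acid oxidation windows. Its share was 12% of all windows and 9.3% of those of tested heart genes. CATTCC, which TEAD factors bind, stood in 4 atrial, 3 ventricular, 3 mesothelial and 4 fatty acid oxidation windows. Its share was 12.6% of all windows and 10.6% of those of tested heart genes. Both were searched on either strand. These are counts of letters and not of bound sites.

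Heart libraries held 10835092 to 13272412 counts, and 14159 genes passed the filter on low counts. Levels are CPM, the count of a gene relative to library size, with library sizes scaled by TMM, a factor that aligns the bulk of genes between libraries. A set difference is the log2 ratio of numbers 1 and 2 over numbers 3 and 4, given ± its standard error (SE) from an edgeR quasi-likelihood fit. The first principal component held 41.1% of the variance, with scores of 23.5 in WT1, 21.9 in WT2, 18.3 in KO1 and 23.4 in KO2, −12 and −12.6 in KO3 and KO4, and −32 and −30.5 in WT3 and WT4. At an adjusted p under 0.05, 735 genes were higher in the atrium-rich set (5.19% of those tested) and 367 lower (2.59%), and the median over all genes was −0.0048. The lower count was 164 without WT1, 212 without WT2, 167 without WT3 and 187 without WT4, and the higher count was 488 without WT3. With library totals in place of TMM, the median of all genes moved to 0.12 and the counts to 1450 higher and 116 lower. Fhl2 stood at 1031 to 1396 CPM in WT and 28.6 to 37.8 CPM in KO hearts, in accord with the labels.

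The atrial myosin light chains gave the widest gap. Myl7 (chr11:5896637-5898782, minus strand) stood at 611 CPM in WT1, 649.8 in WT2, 669 in KO1 and 612 in KO2, and at 5.04 CPM in WT3, 13.1 in WT4, 101 in KO3 and 121 in KO4. Myl4 (chr11:104550663-104595753, plus strand) stood at 870.5 CPM in WT1, 778 in WT2, 799.9 in KO1 and 884 in KO2, and at 7.47 CPM in WT3, 22.6 in WT4, 148 in KO3 and 154 in KO4. In both genes the atrium-rich libraries were close together, every atrium-poor library lay below them, and WT3 and WT4 lay below KO3 and KO4. The set difference was 4.07 ± 0.58 for Myl7 and 3.97 ± 0.56 for Myl4. In bulk tissue, fewer cells of a type and less RNA in each cell cannot be told apart.

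**Figure D1:**
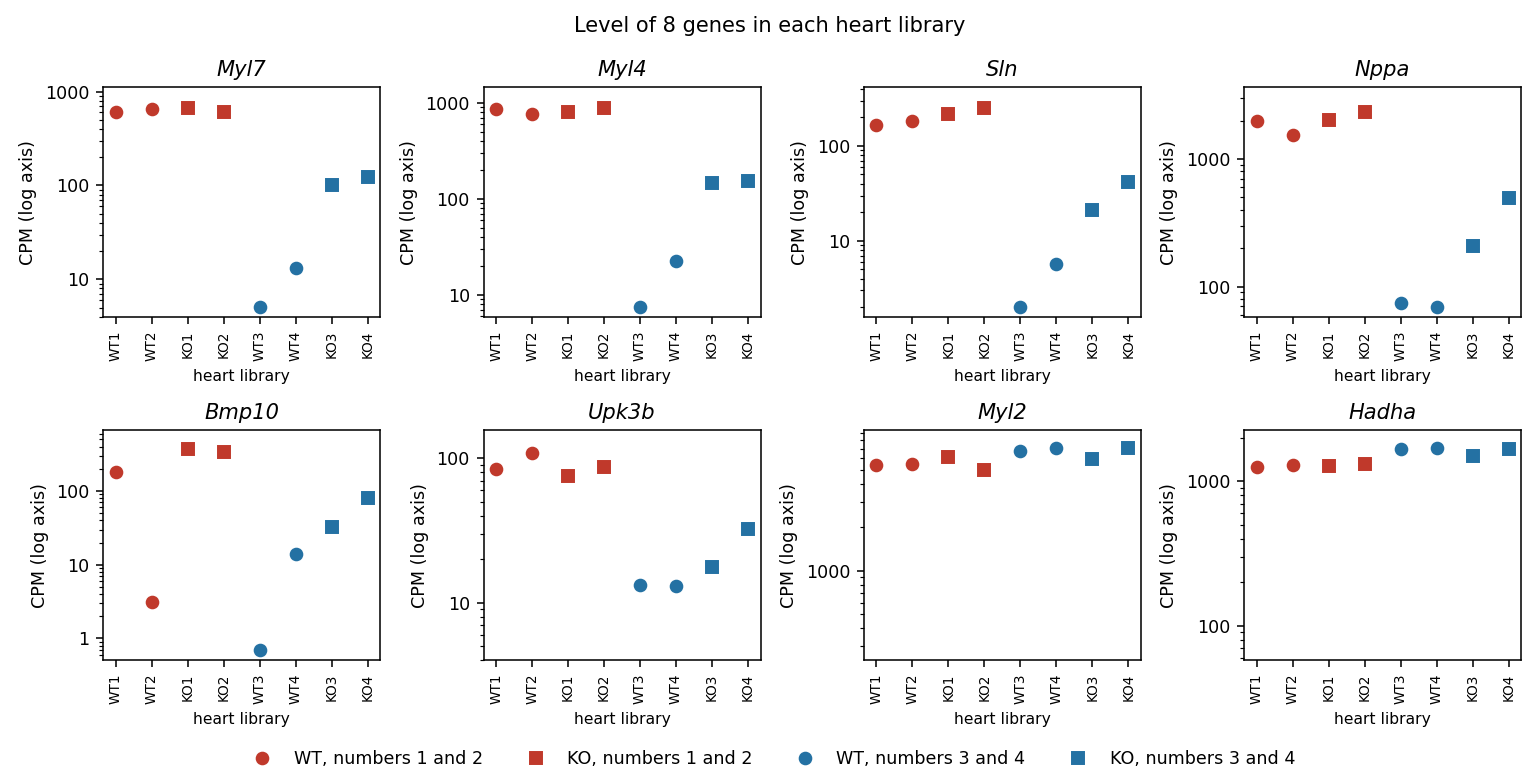
Levels in CPM (log axis) of 8 genes in each heart library, with circles for WT, squares for KO, red for numbers 1 and 2 and blue for numbers 3 and 4. Myl7, Myl4, Sln and Nppa separate the sets, with WT3 and WT4 lowest, WT2 is low in Bmp10, and Myl2 overlaps between the sets.

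The ventricular counterpart overlapped between the sets. Myl2 (chr5:122100951-122113472, plus strand) stood at 5408 CPM in WT1, 5475 in WT2, 6174 in KO1 and 4978 in KO2, and at 6709 CPM in WT3, 7096 in WT4, 5941 in KO3 and 7035 in KO4. KO1 lay above KO3, and the set difference was −0.28 ± 0.08. Per kilobase of exon, Myl7 made up 26.4% to 28.9% of the sum of Myl7 and Myl2 in the atrium-rich libraries, against 0.247% in WT3, 0.609% in WT4, 5.32% in KO3 and 5.4% in KO4. Myl4 made up 13.35% to 16.19% of the sum of Myl4 and Myl3 in the atrium-rich libraries. It made up 0.122% in WT3, 0.372% in WT4, 2.66% in KO3 and 2.37% in KO4. By both ratios the atrium-poor set was itself divided by genotype. Exon length here counts every annotated exon, with 590 bases for Myl7, 1950 for Myl2 and 4637 for Myl4. The percents depend on that length, and neither is a measured share of atrial tissue.

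Sarcolipin and the secreted atrial products differed in the same direction. Sln (chr9:53850164-53854560, plus strand) was 166 CPM in WT1, 184 in WT2, 216 in KO1 and 251 in KO2, and 2.00 CPM in WT3, 5.68 in WT4, 21.3 in KO3 and 41.8 in KO4. Nppa (chr4:148000722-148002079, plus strand), the precursor of atrial natriuretic peptide, was 1976 CPM in WT1, 1541 in WT2, 2006 in KO1 and 2356 in KO2, and 74.8 CPM in WT3, 68.6 in WT4, 209 in KO3 and 491 in KO4. The sets did not overlap in either gene, and the differences were 3.87 ± 0.41 for Sln and 3.61 ± 0.37 for Nppa. Pam, the enzyme that amidates secreted peptides and is abundant in atrial granule membranes, had 1744 to 2289 CPM against 485 to 794 CPM (1.75 ± 0.09). Nppb, the natriuretic peptide that both chambers can make, had 78.3 to 135 CPM against 39.8 to 144 CPM, with sets that overlapped (0.27 ± 0.27).

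Bmp10 (chr6:87428994-87437677, plus strand), a growth factor of adult right atrial muscle, parted from the other atrial genes in WT2. It stood at 183 CPM in WT1, 3.14 in WT2, 374 in KO1 and 339 in KO2, and at 0.695 CPM in WT3, 14.1 in WT4, 32.7 in KO3 and 80 in KO4. WT2 was with the atrium-rich libraries in Myl7, Myl4, Sln and Nppa, but held less Bmp10 than WT4, KO3 and KO4. The set difference of 3.06 ± 0.78 was 1.85 without WT1.

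Of the 20 genes on the atrial list, 19 passed the filter. Past the threshold 16 of the 19 were higher in the atrium-rich set, beside 5.19% of all tested genes. In 14 the sets did not overlap, beside 7.25% of all tested genes that were higher without overlap. The list held the genes that chose the sets, so its count is not evidence of its direction. Its median was 1.75, with 2.30 in WT and 1.57 in KO hearts. Mybphl (chr3:108364911-108380057, plus strand), a myosin-binding protein of atrial and conduction muscle, had 54.9 to 82.8 CPM against 0.347 CPM in WT3, 1.7 in WT4, 9.04 in KO3 and 13.9 in KO4 (3.70 ± 0.38). Dkk3, a secreted Dickkopf protein, had 98.8 to 197 CPM against 2.6 to 50.2 CPM (3.09 ± 0.41). Sbk2, a muscle kinase, had 15.9 to 28.8 CPM against 3.13 to 7.07 CPM (2.33 ± 0.14), and Stard10, a lipid transfer protein, had 112 to 149 CPM against 19.6 to 49.8 CPM (2.12 ± 0.15).

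The atrial factors and channels that follow differed by less than Myl7 and Myl4. Tbx5, a T-box factor of the atria and left ventricle, had 38.6 to 58.1 CPM against 26 to 32.8 CPM (0.78 ± 0.09). Nr2f2, a nuclear receptor of atria and veins, had 24 to 28.2 CPM against 16.9 to 23.9 CPM (0.36 ± 0.08). Kcnj3 (0.86 ± 0.12) and Kcnj5 (0.48 ± 0.07) encode the subunits of the acetylcholine-gated potassium channel, and in both every atrium-rich library lay above every atrium-poor one. Gja5, the gap junction protein connexin 40, had 16.3 to 23.6 CPM against 7.63 to 11.6 CPM, with a difference of 1.03 ± 0.20 in WT and 1.03 ± 0.20 in KO hearts. Cacna2d2, a calcium channel subunit, was past the threshold with overlapping sets (1.63 ± 0.29). Nr2f1 (0.25 ± 0.17), Hey1 (0.36 ± 0.12) and Kcna5 (−0.23 ± 0.13) did not pass, and their sets overlapped.

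**Figure D2:**
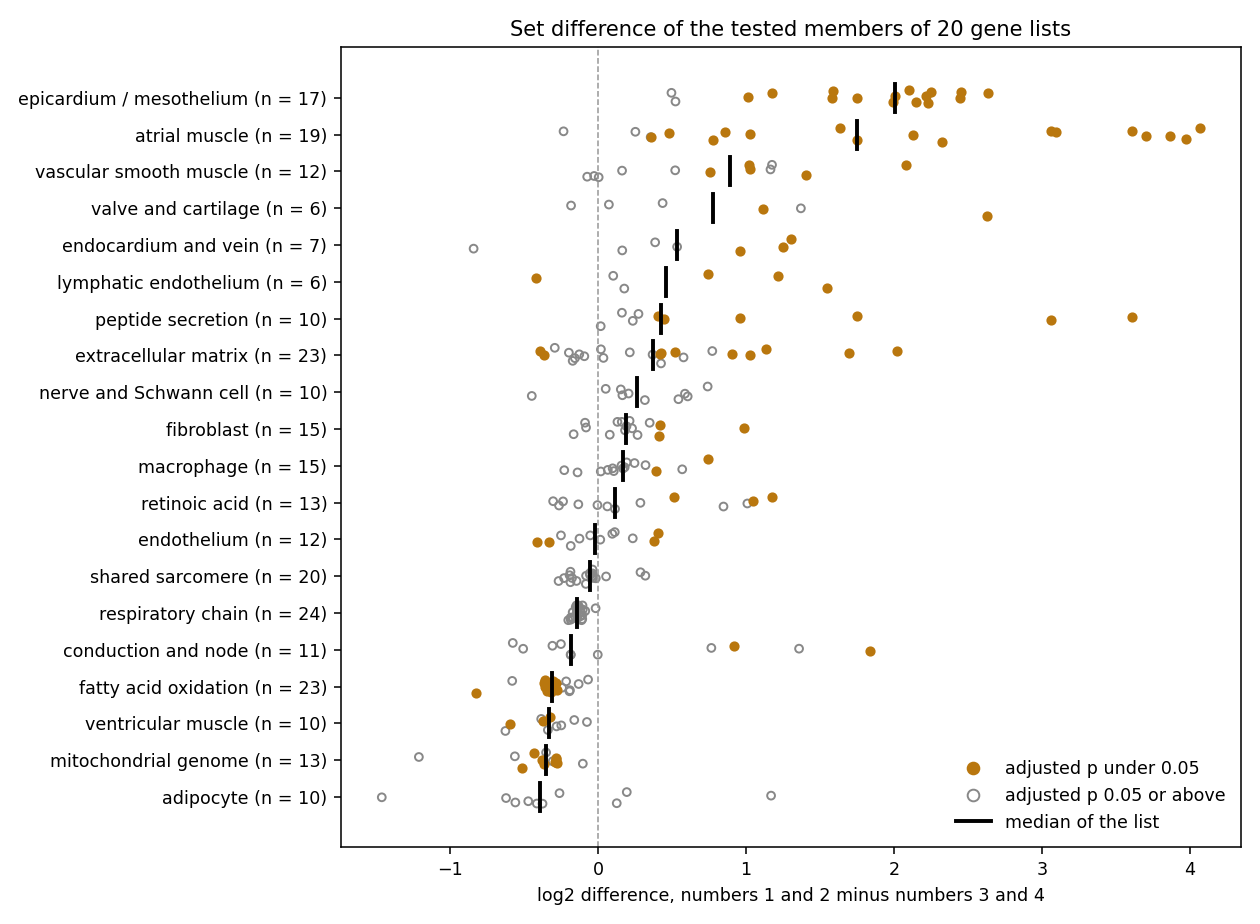
Set difference in log2 (numbers 1 and 2 minus numbers 3 and 4) of each tested member of 20 gene lists, with filled points at an adjusted p under 0.05, open points for the rest and a black bar at each list's median. The mesothelial (median 2.01) and atrial (median 1.75) lists lie furthest to the right, and most fatty acid oxidation genes (median −0.31) lie close together to the left of 0.

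Most atrial genes had higher levels in KO3 and KO4 than in WT3 and WT4. Of the 19 tested atrial genes, 15 were higher in both of these KO libraries than in both WT libraries, as were 17.4% of all tested genes. Other lists had 6 of 8 such genes (blood and platelet), 4 of 6 (valve and cartilage), 6 of 10 (nerve) and 8 of 17 (mesothelial). As a share of its mean in the atrium-rich set, the median atrial gene stood at 17.7% in WT3, 16.7% in WT4, 33.7% in KO3 and 37.9% in KO4. Myl7 stood at 0.792%, 2.07%, 15.9% and 19.1% in the same order. Whether the set difference differed between genotypes was tested as an interaction. The sets were chosen on Myl7 and Myl4, so the interaction values of these 2 genes are a description, and genes whose levels follow theirs are not independent of that choice. The test called 7 genes (0.0494% of those tested; edgeR, adjusted p under 0.05), and 923 had an unadjusted p under 0.05. Myl7 and Myl4 are among the 7, and in all 7 the set difference was smaller in KO hearts.

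The set difference of Myl7 was 6.11 ± 0.28 in WT and 2.53 ± 0.22 in KO hearts, an interaction of −3.59 ± 0.33. For Myl4 it was 5.77 ± 0.32 and 2.48 ± 0.27 (−3.29 ± 0.39), and for Mybphl 5.91 ± 0.32 and 2.83 ± 0.22 (−3.08 ± 0.44). Dkk3 (−2.73 ± 0.39), the zinc transporter Tmem163 (−2.99 ± 0.43), the basement membrane protein Fras1 (−2.77 ± 0.38) and the collagen-binding proteoglycan Fmod (−1.29 ± 0.18) were called too, each at an edgeR adjusted p of 0.0245, as was Mybphl. Fmod stood at 40.4 to 47.6 CPM in the atrium-rich set and at 8.59 CPM in WT3, 8.23 in WT4, 21.3 in KO3 and 19 in KO4. Sln (−2.61 ± 0.44, edgeR adjusted p = 0.0814) and Nppa (−1.98 ± 0.39, edgeR adjusted p = 0.181) had the same sign and did not pass. Each genotype has only 2 atrium-poor libraries, so genotype and the amount of atrial tissue left in them cannot be told apart.

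The interaction calls depended on single libraries. Their number was 13 without WT1, 2 without WT3, 2 without KO1, 19 without KO2 and 13 without KO3, and 24 with the title number as a block. Each fit without 1 library leaves an arm of the interaction with a lone library, which is assumed to vary like the other groups. The 5 genes other than Myl7 and Myl4 kept their sign and did not pass without WT3 (edgeR adjusted p of 0.249 to 0.336) or without KO1 (0.0955 to 0.168).

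**Figure D3:**
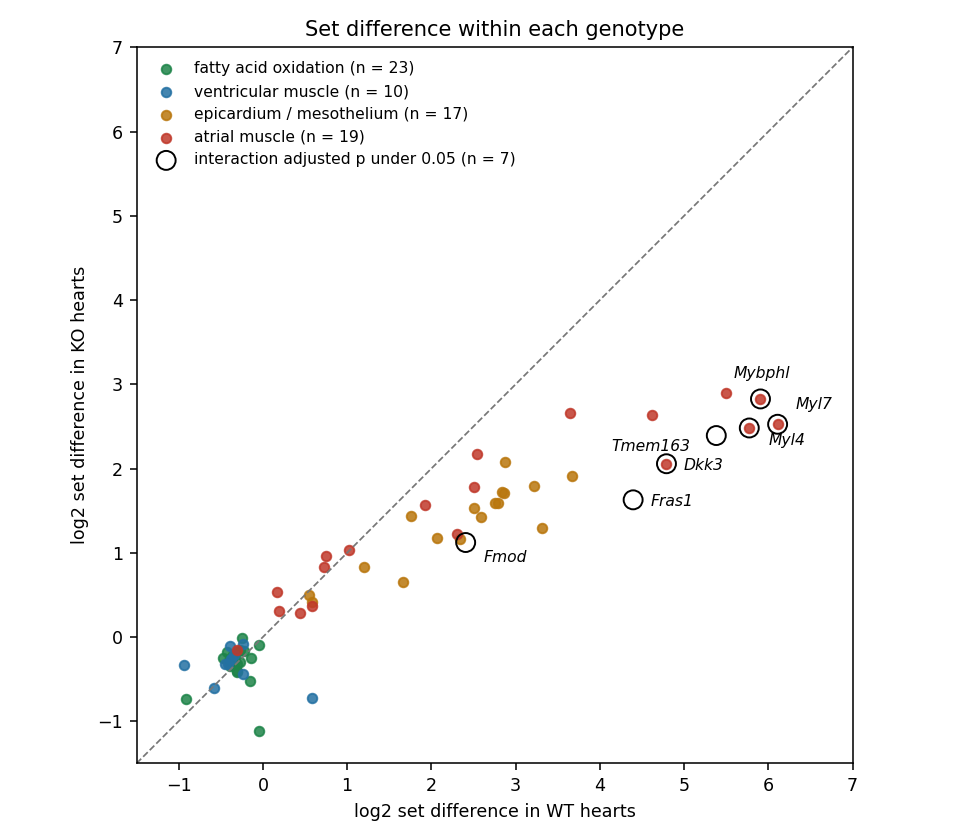
Set difference in log2 in WT hearts (horizontal axis) against KO hearts (vertical axis) for the tested genes of 4 lists, with rings on the 7 genes called in the interaction test and a dashed line where both genotypes are equal. The ringed genes, among them Myl7 at 6.11 in WT and 2.53 in KO, lie below the line.

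Mesothelial genes formed the list with the highest median. All 17 were tested, 15 were higher past the threshold (beside 5.19% of all tested genes), 16 were higher with sets that did not overlap (beside 7.25%), and the median was 2.01. Upk3b, a uroplakin of mesothelial cells, stood at 83.6 CPM in WT1, 108 in WT2, 75.4 in KO1 and 87 in KO2, and at 13.2 CPM in WT3, 13.1 in WT4, 17.8 in KO3 and 32.1 in KO4 (2.25 ± 0.22). Muc16, the surface mucin that carries the CA125 antigen, stood at 93.4 CPM in WT1, 104 in WT2, 58.8 in KO1 and 88.7 in KO2, and at 10.5 CPM in WT3, 10.8 in WT4, 14.1 in KO3 and 28.6 in KO4 (2.45 ± 0.27). In both genes every atrium-rich library lay above every atrium-poor one, and KO4 was the highest of the atrium-poor set. Msln, mesothelin, had 32.4 to 49.2 CPM against 6.08 to 16.7 CPM (2.15 ± 0.25).

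Members of the list differed in size. Krt7 (2.63 ± 0.37) and Krt19 (2.23 ± 0.38), keratins of simple epithelia, and Bnc1, the zinc finger protein basonuclin 1 (2.44 ± 0.29), had large differences. Wt1 (0.52 ± 0.16) and Tbx18 (0.50 ± 0.14), factors of the embryonic epicardium, were the members that did not pass. Wt1 had 11.6 to 17.4 CPM against 7.7 to 11.6 CPM, with sets that overlapped. Aldh1a2, which makes retinoic acid in the epicardium, had 14 to 31.8 CPM against 7.12 to 10.7 CPM (1.17 ± 0.21), with 1.67 ± 0.22 in WT and 0.66 ± 0.22 in KO hearts. On the retinoic acid list, 3 of 13 tested genes were higher past the threshold, beside 5.19% of all tested genes. The 3 include Aldh1a2 and Aldh1a1, another retinaldehyde dehydrogenase, with 58.7 to 60 CPM against 38.8 to 44 CPM (0.51 ± 0.07).

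The median mesothelial gene stood at 22.5% of its atrium-rich mean in WT3, 16.9% in WT4, 20.5% in KO3 and 41.1% in KO4. Upk3b stood at 14.9% in WT3 and 14.8% in WT4, where Myl7 stood at 0.792% and 2.07%. In KO3 and KO4, Upk3b stood at 20.1% and 36.3%. In the edgeR interaction test no mesothelial gene was called, beside 0.0494% of all tested genes, and the list had a median of −1.12. At that share a list of this size would seldom hold a called gene, so the count does not set the list apart. In WT3 and WT4 the medians of the mesothelial and atrial lists were thus closer to each other than Upk3b was to Myl7. Summed levels of the mesothelial list ran from 421 to 618 CPM in the atrium-rich and 124 to 238 CPM in the atrium-poor libraries, and those of the atrial list from 5532 to 7628 CPM and from 839 to 2092 CPM.

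**Figure D4:**
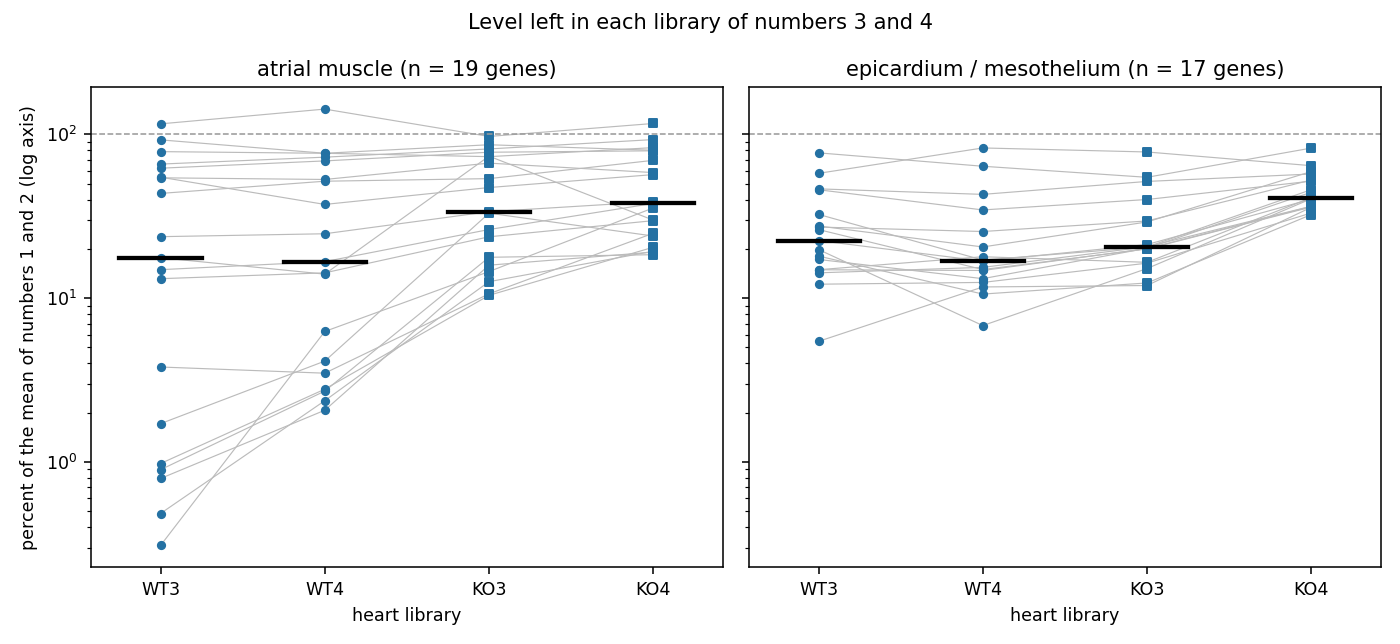
Level of each tested atrial gene (left, 19 genes) and mesothelial gene (right, 17 genes) in WT3, WT4, KO3 and KO4 as a percent of its mean over numbers 1 and 2 (log axis), with grey lines joining the values of 1 gene and black bars at the medians. The atrial medians are 17.7% and 16.7% in WT3 and WT4 and 33.7% and 37.9% in KO3 and KO4.

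Of 10 ventricular genes, 3 were lower past the threshold in the atrium-rich set, beside 2.59% of all tested genes. Sets did not overlap in 4 (beside 5.62%), all 10 had a negative difference, and the median was −0.33. Pln, phospholamban, had 3993 to 4749 CPM against 5178 to 5782 CPM (−0.37 ± 0.07). Irx3, a homeobox factor of the ventricular conduction system, had 11.4 to 14.9 CPM against 18.2 to 20.1 CPM (−0.59 ± 0.10), and Myl3 had 2004 to 2289 CPM against 2388 to 2791 CPM (−0.32 ± 0.07). In these 3 genes every atrium-rich library lay below every atrium-poor one. Myh7, the slow myosin heavy chain, overlapped (−0.08 ± 0.23), with 0.59 ± 0.18 in WT and −0.73 ± 0.18 in KO hearts.

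Sarcomere genes that both chambers use overlapped between the sets. Of 20 tested, 0 passed in edgeR, beside 5.19% higher and 2.59% lower over all tested genes. The median of −0.06 turned to 0.07 with library totals. Myh6, the main myosin heavy chain of the adult mouse heart, had 9739 to 12710 CPM against 10158 to 12296 CPM (−0.02 ± 0.09). The list summed to 45310 to 49342 CPM in the atrium-rich and 46430 to 53160 CPM in the atrium-poor libraries.

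Pacemaker and channel genes were mixed. Of 11 tested conduction genes, 2 were higher past the threshold, beside 5.19% of all tested genes. Cacna1d, a calcium channel of node and atrium, was 1 of the 2, with 3.28 to 6.24 CPM against 1.65 to 3.65 CPM (0.92 ± 0.26). Hcn4, the main pacemaker channel of the sinus node, did not pass (4.57 to 9.14 CPM against 7.29 to 14.8 CPM, −0.51 ± 0.22), nor did Tbx3, a repressor of working muscle genes in the node (−0.0025 ± 0.10). Of 32 calcium and ion channel genes, 7 were higher and 4 lower past the threshold, beside 5.19% and 2.59% of all tested genes. Cacna1h, a T-type calcium channel, had 23.3 to 40.2 CPM against 7.73 to 19.8 CPM (1.31 ± 0.16). Gja1, connexin 43 of working muscle, had 183 to 243 CPM against 254 to 291 CPM (−0.40 ± 0.09).

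Of 12 smooth muscle genes tested, 5 were higher past the threshold, beside 5.19% of all tested genes. The median of the list was 0.89, and 0.51 without WT1. Tagln, an actin-binding protein, stood at 82.9 CPM in WT1, 30.1 in WT2, 48.4 in KO1 and 97.6 in KO2, against 18 to 33.8 CPM (1.40 ± 0.29). Cnn1, calponin 1, stood at 15.1 CPM in WT1, 2.22 in WT2, 6.56 in KO1 and 15.4 in KO2, against 1.77 to 2.7 CPM (2.08 ± 0.47). WT2 lay within the range of the atrium-poor libraries in Tagln and Cnn1, as it did in Bmp10. Mgp, the matrix Gla protein of vessel walls, was the 1 gene of the list whose sets did not overlap (295 to 333 CPM against 126 to 202 CPM, 1.03 ± 0.11).

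Matrix and fibroblast genes differed one by one. Of 23 matrix genes, 8 were higher and 2 lower, beside 5.19% and 2.59% of all tested genes. The median of the list was 0.37, with 0.23 without WT2 and 0.19 without WT4. Timp1, a metalloproteinase inhibitor, had 2.66 to 4.51 CPM against 0.608 to 1.35 CPM (2.02 ± 0.29), and Eln, elastin, had 30.9 to 53.3 CPM against 17 to 28 CPM (1.02 ± 0.16). Fbn1, fibrillin 1, was lower, with 54.3 to 68.3 CPM against 71.5 to 89.5 CPM (−0.40 ± 0.09). Of 15 fibroblast genes, 3 were higher (beside 5.19% of all tested genes) and the median was 0.19. Dpp4, a surface peptidase, had 23.1 to 31.1 CPM against 12.1 to 17.8 CPM (0.98 ± 0.13), while Pdgfra, the receptor that marks fibroblasts, overlapped (0.13 ± 0.11). Of 6 tested valve and cartilage genes, 2 were higher, Hapln1 (2.63 ± 0.68) and Cytl1 (1.11 ± 0.21), beside 5.19% of all tested genes. The median of the list was 0.77, and 1.68 without KO3. Chad was the 1 member with a negative difference (−0.18 ± 0.97). Comp, cartilage oligomeric matrix protein, did not pass (1.37 ± 0.42). Comp stood at 9.1 to 19.8 CPM against 1.56 CPM in WT3, 2.71 in WT4, 17.4 in KO3 and 5.72 in KO4, where KO3 reached the atrium-rich range.

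Endothelial genes went both ways. The endothelial list had 2 higher and 2 lower genes of 12, beside 5.19% and 2.59% of all tested genes, and a median of −0.02. Kdr, a VEGF receptor, had 196 to 223 CPM against 252 to 295 CPM (−0.41 ± 0.07), and Eng, endoglin, had 230.3 to 315 CPM against 188 to 219 CPM (0.40 ± 0.07). Of 7 tested endocardial and venous genes, 3 were higher, beside 5.19% of all tested genes. Plvap, a protein of endothelial diaphragms, had 26.9 to 37 CPM against 11.3 to 17.2 CPM (1.25 ± 0.12), and Npr3, the natriuretic peptide clearance receptor, had 127 to 237 CPM against 69.5 to 144 CPM with sets that overlapped (0.96 ± 0.13). Of 6 lymphatic genes, 3 were higher and 1 was lower, beside 5.19% and 2.59% of all tested genes. Lyve1, of lymphatic vessels and resident macrophages, had 61.3 to 82 CPM against 30.9 to 46.1 CPM (0.74 ± 0.13), and Pdpn, podoplanin of lymphatic vessels and mesothelium, had 13.4 to 22.2 CPM against 6.77 to 7.54 CPM (1.21 ± 0.14).

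Markers of other tissues that can cling to a heart were mostly not past the threshold. Of 10 tested fat cell genes 0 passed in edgeR, beside 5.19% higher and 2.59% lower over all tested genes. Adipoq, adiponectin, stood at 5.82 CPM in WT1, 26.1 in WT2, 3.91 in KO1 and 6.33 in KO2, and at 27.2 CPM in WT3, 2.46 in WT4, 8.57 in KO3 and 15.6 in KO4, highest in WT2 and WT3. Nerve genes (0 of 10), blood and platelet genes (0 of 8) and neutrophil genes (0 of 3) did not pass in edgeR. Of 4 tested skeletal muscle genes 2 were higher, beside 5.19% of all tested genes. The 2 were the fast calcium pump Atp2a1 (1.15 to 2.5 CPM against 0.521 to 1.19 CPM, 1.34 ± 0.33) and the fast fibre actinin Actn3 (0.765 to 2.73 CPM against 0.0848 to 1.51 CPM, 1.71 ± 0.46). The haemoglobin gene Hbb-bs had 340.3 to 982 CPM against 106 to 1199 CPM. Lung genes summed to at most 1.43 CPM in any heart library, with the surfactant genes Sftpc, Sftpa1 and Sftpd at 0. Of 15 macrophage genes 2 were higher, beside 5.19% of all tested genes. The 2 were Lyve1 and Cd163, a scavenger receptor (0.39 ± 0.11), and the median of the list was 0.17.

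Genes of fatty acid oxidation were mostly lower in the atrium-rich set, by small amounts. All 23 had a negative difference and 15 passed the threshold, beside 2.59% of all tested genes that were lower. In 16 the sets did not overlap, beside 5.62% of all tested genes that were lower without overlap. The median was −0.31, and −0.19 with library totals. Hadha, of the mitochondrial trifunctional protein, stood at 1259 CPM in WT1, 1299 in WT2, 1277 in KO1 and 1318 in KO2, and at 1673 CPM in WT3, 1709 in WT4, 1494 in KO3 and 1680 in KO4 (−0.35 ± 0.06). Cd36, which takes up fatty acids, had 1776 to 2012 CPM against 2289.5 to 2619 CPM (−0.36 ± 0.07). Ucp3, a mitochondrial carrier, stood at 28 CPM in WT1, 18.1 in WT2, 37.2 in KO1 and 22.9 in KO2, and at 39.8 CPM in WT3, 47 in WT4, 48.6 in KO3 and 52.2 in KO4 (−0.82 ± 0.15). In these 3 genes every atrium-rich library lay below every atrium-poor one. Cpt1a, a carnitine transferase common to many cell types, overlapped (−0.07 ± 0.07).

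Transcripts of the mitochondrial genome were also lower. They made up 28.2% to 29.8% of counts in the atrium-rich and 31.2% to 34.5% in the atrium-poor libraries. Of its 13 protein genes 8 were lower past the threshold, beside 2.59% of all tested genes, with a median of −0.35. mt-Co1, an oxidase subunit, differed by −0.28 ± 0.06, and mt-Nd5, of complex I, by −0.44 ± 0.08. mt-Co2 stood at 184 CPM in WT3 and 24.5 to 34.5 CPM elsewhere, and its difference of −1.21 ± 0.43 was −0.33 without WT3. Nuclear genes of the respiratory chain had a median of −0.14, −0.01 with library totals. In edgeR 0 of 24 passed, beside 5.19% higher and 2.59% lower over all tested genes.

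Beyond the lists, several genes had gaps as wide as those of the atrial genes. Fgf12, an intracellular partner of sodium channels, stood at 39.7 CPM in WT1, 38.2 in WT2, 38.1 in KO1 and 44.4 in KO2, and at 0.347 CPM in WT3, 1.7 in WT4, 5.87 in KO3 and 10 in KO4 (3.27 ± 0.37). Sbk3, a muscle kinase, had 64.6 to 149 CPM against 5.99 to 28.5 CPM (3.08 ± 0.23), Rxfp1, the relaxin receptor, had 6.64 to 12 CPM against 0.0848 to 2.22 CPM (3.09 ± 0.43), and Ppp1r1b, a phosphatase inhibitor, had 10.3 to 15.8 CPM against 0.26 to 2.36 CPM (3.22 ± 0.37). In each of these 4 genes WT3 and WT4 were the lowest libraries, as in Myl7. Mlana, a melanosome protein, had 2.22 to 5.36 CPM against 0.0848 to 1.09 CPM (3.19 ± 0.37), Bmp3, a growth factor, had 3.14 to 7.65 CPM against 0.17 to 1.26 CPM (2.84 ± 0.37), and Rab3b, a vesicle GTPase, had 3.52 to 4.83 CPM against 0.0848 to 0.841 CPM (3.04 ± 0.34). Cd207, langerin of dendritic cells, stood at 4.42 CPM in WT1, 1.15 in WT2, 6.95 in KO1 and 6.42 in KO2, and was under the filter's 0.805 CPM in all 4 atrium-poor libraries, so it had to differ once it was tested.

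Genes lower in the atrium-rich set had smaller differences. Irx2, a homeobox gene related to Irx3, stood at 1.18 CPM in WT1, 1.38 in WT2, 2.73 in KO1 and 4.04 in KO2, and at 5.56 CPM in WT3, 6.36 in WT4, 5.71 in KO3 and 5.47 in KO4 (−1.38 ± 0.27). Meox2, a homeobox factor of heart capillaries, had 10.5 to 13.2 CPM against 20.3 to 23.6 CPM (−0.88 ± 0.10), and Aplnr, the apelin receptor, had 27.6 to 32 CPM against 36.7 to 62.8 CPM (−0.83 ± 0.13). Ppargc1b, a coactivator of mitochondrial genes, had 8.67 to 11.4 CPM against 17.4 to 18.4 CPM (−0.80 ± 0.10), and Hdac9, a class II histone deacetylase, had 11.2 to 16.2 CPM against 21.5 to 25.1 CPM (−0.78 ± 0.11). Every atrium-rich library lay below every atrium-poor one in these 5 genes. The 15 lower genes taken by size ran from −1.38 to −0.78 (Col5a3, a fibrillar collagen), and the 15 higher ones from 4.07 to 2.84.

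KO and WT hearts were compared with the set as a covariate. The sets were chosen by levels in these same libraries, so what the covariate changes in the fit is a description and supports nothing. Without the covariate the biological coefficient of variation was 0.149 and 453 genes had an unadjusted p under 0.05, of which 1 was called. With it the coefficient was 0.102, 804 genes had an unadjusted p under 0.05, and 2 were called (0.0141% of those tested). These were Fhl2 (−5.13 ± 0.09) and Mthfd2, a mitochondrial folate enzyme. Mthfd2 had 5.82 to 7.96 CPM in WT and 10.8 to 14.9 CPM in KO hearts (0.88 ± 0.12, edgeR adjusted p = 0.0292). Its call was lost without any 1 of the 8 libraries (edgeR adjusted p of 0.0518 to 0.156) and with the title number as a block (adjusted p = 0.139). The number of calls was 3 without WT1, 1 without any 1 of WT2, WT3, WT4, KO1, KO2 or KO4, and 1 with the block. Of the atrial list 0 genes were called by edgeR and 14 of 19 had an unadjusted p under 0.05, beside 804 of all 14159 tested genes. The median KO minus WT difference of the list was 0.61. Myl7, on which the sets were chosen, differed by 1.52 ± 0.55, and genes whose levels follow it are not independent of that choice. In numbers 1 and 2, Myl7 stood at 611 and 649.8 CPM in WT and 669 and 612 CPM in KO hearts. In numbers 3 and 4 it stood at 5.04 and 13.1 CPM in WT and 101 and 121 CPM in KO hearts. DESeq2 called 20 genes in all in this contrast.

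The gWAT libraries carry title numbers too, and number 1 was set against numbers 3 and 4 there, with 2 libraries against 4. Of 15200 genes 0 were called by edgeR (0% in either direction), 1228 had an unadjusted p under 0.05, and DESeq2 called 54. Without KO1 of gWAT edgeR called 402, and without WT1 it called 1. Of the 1102 genes past the threshold between the heart sets, 976 were tested in gWAT. The gene with the smallest p in gWAT was Thrsp, a regulator of fat synthesis, with a log2 difference of 0.94 (edgeR unadjusted p = 4.07e-05, adjusted p = 0.328). It overlapped between the heart sets (0.17 ± 0.11). Mesothelial genes had a median of 0.20 in gWAT, with 0 of 17 called, beside 2.01 in heart.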

How the data were processed

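Read counts per gene were deposited by the authors as 1 table with 33459 gene identifiers. Tools listed in the submitters' processing notes, without their roles, are HISAT2 2.1.0, HTSeq 0.11.0, Trimmomatic 0.32, limma, Picard and FastQC, and the build is mm10. Annotation release and strand setting were not given in the sources used here, so overlapping, antisense and near-identical genes are uncertain. Of the identifiers, 33406 had a symbol (16 symbols were on more than 1 identifier), and those without held 0.0132% of the reads of all 14 libraries.

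The 8 heart libraries were grouped by genotype and title number, as in the labels. Genes were kept by the edgeR filter (minimum count of 10, or 0.805 CPM, in at least 4 libraries), scaled by TMM and fitted with the quasi-likelihood test of edgeR 4.0.16 in R 4.3.3, adjusted by Benjamini-Hochberg across every gene tested. Terms were title number set and genotype, and their interaction in a further fit. The script was tested on simulated counts. Members, sets and gene lists were chosen with earlier results of these data known.

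Genes named are the 5 markers, up to 5 genes per list by size of the set difference, the 15 highest and 15 lowest genes without overlap, the 5 smallest p-values of each test, and Fhl2. Cacna2d2, Cd36, Cpt1a, Fbn1, Gja1, Hadha, Hbb-bs, Hcn4, Hey1, Kcna5, Kcnj3, Kcnj5, Msln, Myh6, Myh7, Myl3, Nppb, Nr2f1, Nr2f2, Pdgfra, Sbk2, Stard10, Sftpa1, Sftpc, Sftpd, Tbx3, Tbx5, Tbx18, Wt1 and mt-Co1 are list members chosen after their values were seen. Some list members are not reported here.

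Same-numbered WT and KO hearts deviated together (r of 0.252, 0.365, 0.335 and 0.258 for numbers 1 to 4 about their genotype means), but r was 0.00466 and 0.0073 once set means were removed. Alternatives were other scalings, filters and thresholds, DESeq2 1.42.0, limma-voom (limma 3.58.1), each library left out, a block on title number, and library totals, the last chosen after seeing the data. Promoter windows are from RefSeq.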

Additional observations from a re-analysis of the deposited data

Results flagged for a closer look

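The set difference differed between WT and KO hearts in 7 genes by the interaction test of edgeR, always smaller in KO. Myl7 and Myl4, on which the sets were chosen, are among them, and their values are a description. The KO minus WT values were −3.59 for Myl7, −3.29 for Myl4, −3.08 for Mybphl, −2.99 for Tmem163, −2.77 for Fras1, −2.73 for Dkk3 and −1.29 for Fmod, on the log2 scale.

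In some genes 1 library of a set stood apart from the other 3 by Dixon's criterion for 4 samples, which chance meets in about 1 of 20 groups. Of 180 groups tested, 12 met it. Among the atrium-rich libraries, Adipoq was 26.1 CPM in WT2 against 3.91 to 6.33, Lyve1 was 82.0 CPM in WT1 against 61.3 to 64.5, and Ppp1r1b was 15.8 CPM in WT1 against 10.3 to 10.9. Kcnj5 was 129.6 CPM in KO1 against 121.7 to 122.1, Fras1 was 10.2 CPM in KO2 against 9.06 to 9.26, and Col5a3 was 8.17 CPM in WT1 against 10.1 to 10.5. Among the atrium-poor libraries, Msln was 16.7 CPM in KO4 against 6.08 to 7.29, and Dpp4 was 17.8 CPM in KO4 against 12.1 to 12.3. Itga8 was 12.2 CPM in KO3 against 6.19 to 6.73. Hadha was 1494 CPM in KO3 against 1673 to 1709. mt-Co2 was 184 CPM in WT3 against 31.6 to 34.5, and mt-Nd5 was 46970 CPM in WT4 against 41900 to 42500.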

How the results depend on the processing

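Genes past the threshold between the heart sets, 735 higher and 367 lower, numbered 687 and 473 in WT hearts alone, 163 and 20 in KO hearts alone, 1450 and 116 with library totals, and 410 and 108 at an adjusted p under 0.01. Without the low-count filter 607 were lower. Leaving out 1 library gave 488 to 838 higher and 164 to 525 lower. All 1102 kept their direction in each of these 8 fits, and 546 were called in all of them. The 7 interaction calls became 204 without the filter, 15 with DESeq2, 2 with limma-voom, 24 with the replicate block and 1 at an adjusted p under 0.01, and 2 to 19 without 1 library. The 2 genotype calls became 224 without the filter, 20 with DESeq2, and 1 without the set covariate, with the replicate block or at an adjusted p under 0.01, and 1 to 3 without 1 library. The 0 calls in gWAT became 54 with DESeq2 and 0 to 402 without 1 library. The cause of these changes was not tested. Of list medians under the alternatives, 398 values moved by less than the residual SD of the list's median across libraries and 44 by more.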

Other observations

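WT2 differed from the other atrium-rich libraries in several lists at once. It was lowest of the 4 in Bmp10 (3.14 CPM), Cnn1 (2.22 CPM), Myh11, the smooth muscle myosin heavy chain (41.5 CPM against 77.4 to 105 CPM), and Itga8, an integrin of smooth muscle (6.12 CPM against 10.4 to 29.8 CPM). It was highest of the 4 in Upk3b (108 CPM), Aldh1a2 (31.8 CPM) and Adipoq (26.1 CPM). Its Myl7 level was 649.8 CPM, within the 611 to 669 CPM of the set. These genes were singled out after their values were seen, and the differences were not tested.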
